A study of Mus musculus with 10 samples.

Results

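The small leucine-rich proteoglycans are secreted proteins of connective tissue, and 9 of their genes, Lum, Dcn, Bgn, Fmod, Ogn, Aspn, Prelp, Podn and Omd, were followed here among 22180 genes measured in portal tracts. The genes were chosen by name, and each was read from its probe set with exactly 1 gene symbol, or from the one with the highest mean over the 10 arrays where a gene has several. The proteins of this family share a core of leucine-rich repeats that binds collagen, and many carry chondroitin, dermatan or keratan sulfate chains. They line collagen fibrils and limit their lateral growth, and several hold growth factors such as TGF-beta in the matrix. In the liver they lie in the collagen-rich stroma around the portal vein, hepatic artery and bile duct, where portal fibroblasts and vascular wall cells make much of the matrix. By relatedness, Dcn, Bgn and Aspn form one class, Lum, Fmod, Prelp and Omd a second one, Ogn belongs to a further class and Podn to another.

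Mice were 1 week old, and laser capture took portal tracts out of frozen sections of their livers, 12 to 20 of them for each replicate. The Jag1+/-Rfng+/- group (5 arrays) is heterozygous at Jag1, the gene of a Notch ligand, and at Rfng, which encodes the Notch-modifying glycosyltransferase Radical fringe. No strain is labelled for it, and neither allele is described. The control group (5 arrays) is labelled C57Bl/6J, with no further genotype, and both groups are 1 week of age. The study asks how remodelling and differentiation in the tracts differ between the genotypes. The labels do not tie replicates to mice, and replicates that share a mouse would make the p-values too small, since these rest on the spread between replicates alone.

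Values are the authors' log2 expression values, and arrays have no read depth, so precision rests on their number. Array medians lay between 3.22 and 3.30. Jag1+/-Rfng+/- replicate 5, whose sample name ends in excl, stood apart with correlations of 0.956 to 0.963 to the other arrays, against at least 0.969 among those, and was kept. Of the targeted genes, Jag1 averaged 4.39 ± 0.63 in Jag1+/-Rfng+/- and 5.72 ± 0.93 in control, and Rfng averaged 4.36 ± 0.16 in Jag1+/-Rfng+/- and 4.82 ± 0.20 in control (SD, n = 5 each). Adjusted over all genes neither passed (limma adjusted p = 0.559 for Jag1 and 0.416 for Rfng), and their probe sets may lie outside the mutated part. Numbers in the sample names take 4 values whose meaning the labels leave unsaid, and which could mark batches, and 1 of them is found in both groups (4 Jag1+/-Rfng+/- and 3 control arrays). As markers of stroma and ducts, the 14 measured portal fibroblast markers averaged 4.22 to 5.68 per array in Jag1+/-Rfng+/- and 4.86 to 5.95 in control, and the 8 measured biliary markers 4.23 to 4.99 and 4.70 to 5.50. Control means of single markers ran from 2.83 to 8.24 in the fibroblast list and from 2.08 to 6.43 in the biliary list. A list mean therefore does not show that each marker was present. Hepatocyte markers were bright on all arrays, with list means of 10.29 to 10.44 in Jag1+/-Rfng+/- and 10.12 to 10.41 in control.

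Across the family, 8 of 9 genes had a lower mean in Jag1+/-Rfng+/- tracts, where 51.5% of all genes did. The 8 include Omd, at -0.05, for which no signal was seen in either group, and Podn, at -0.12. The differences ranged from -1.31 log2 for Ogn to 0.02 for Dcn, with a median of -0.34 against -0.01 over all genes. In limma's test 0 of the 9 passed an adjusted p of 0.05, which 0.00902% of all genes, 2 in number, did. At an unadjusted p under 0.05, 2 of the 9, Ogn and Lum, were lower (3.79% of all genes were called this way) and 0 were higher (2.98% of all genes). Only Ogn had groups that did not overlap, in the lower direction (0.766% of all genes), and 0 of the 9 did so in the higher direction (0.618% of all genes). The count of 2 became 4 without control replicate 4, with Fmod and Prelp added (4.17% of all genes were then lower). It became 3 without Jag1+/-Rfng+/- replicate 4, with Aspn added (4.24% of all genes). Within the 7 arrays of the shared sample-name number it became 1, Ogn (3.45% of all genes). In captured tissue, fewer cells of a type and less RNA per cell cannot be told apart. Levels of different probe sets are not comparable, so the genes are compared by their differences between groups and not by their brightness.

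**Figure D1:**
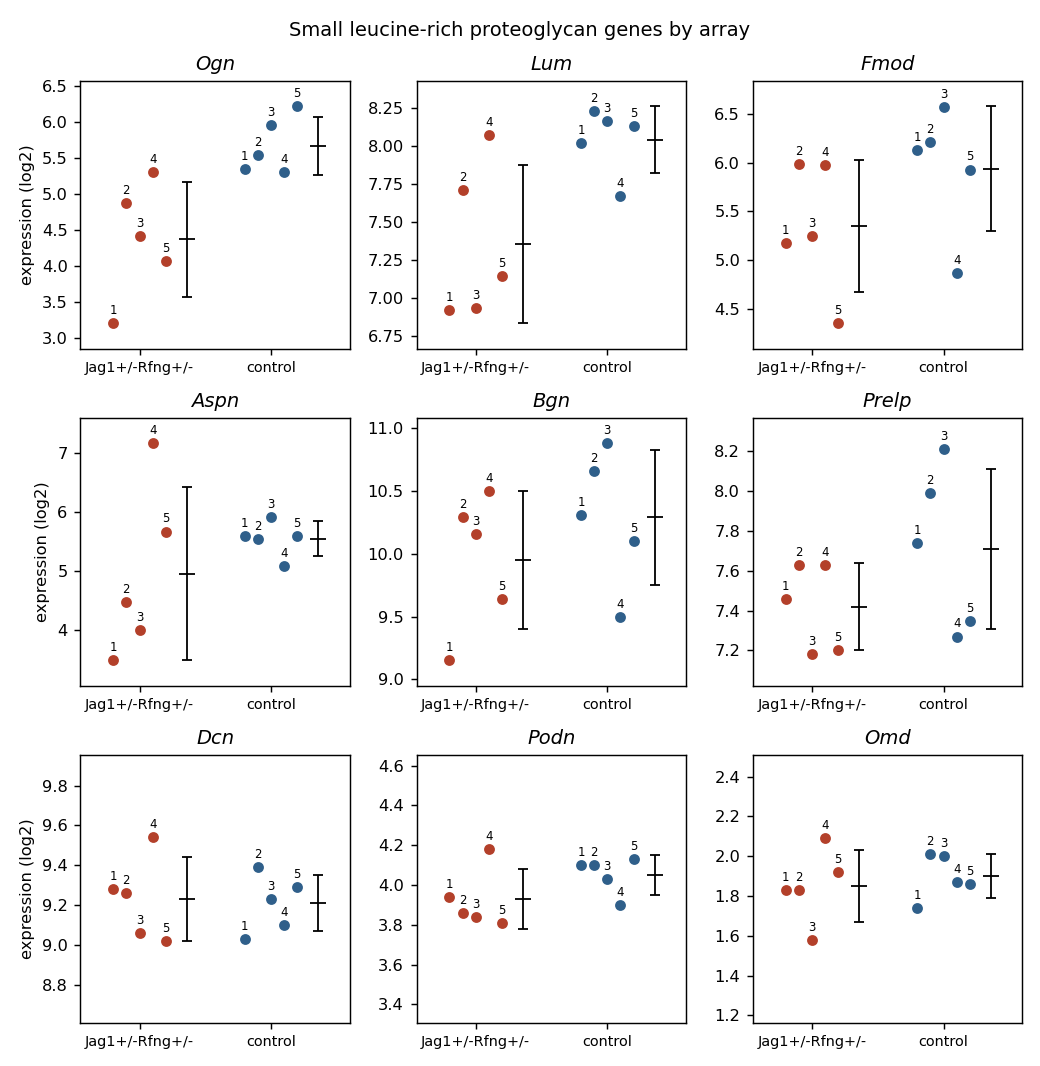
Each panel plots the log2 expression of 1 gene, with the 5 Jag1+/-Rfng+/- arrays in red and the 5 control arrays in blue, numbered by replicate, and bars for the mean ± SD. The Ogn groups do not overlap, the Lum groups overlap through Jag1+/-Rfng+/- replicates 2 and 4, and the Dcn groups cover much the same range. The vertical scale differs between panels.

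Ogn, Aspn and Omd lie next to each other on mouse chromosome 13, in the order Ecm2, Aspn, Omd, Ogn in the RefSeq annotation of GRCm38.p6, and Ecm2 is itself a relative of the family. RefSeq promoters were at hand for 7 of the 9 genes. The 250 bases before the start of each of these 3 neighbours are shown, since the genes lie side by side and yet had the largest difference of the family, the widest spread and no clear signal, and capitals mark matches to TATAAA or its reverse TTTATA.
Ogn (chr13:49607765-49608014, plus strand): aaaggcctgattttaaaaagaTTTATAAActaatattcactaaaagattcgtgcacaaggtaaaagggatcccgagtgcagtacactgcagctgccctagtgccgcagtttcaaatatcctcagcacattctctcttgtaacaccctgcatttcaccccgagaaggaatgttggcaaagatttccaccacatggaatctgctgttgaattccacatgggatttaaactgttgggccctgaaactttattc
Aspn (chr13:49544193-49544442, plus strand): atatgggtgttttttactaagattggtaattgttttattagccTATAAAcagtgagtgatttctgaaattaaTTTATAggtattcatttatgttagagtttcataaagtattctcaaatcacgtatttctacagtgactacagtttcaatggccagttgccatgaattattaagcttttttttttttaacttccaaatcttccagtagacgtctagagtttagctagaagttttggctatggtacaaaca
Omd (chr13:49582212-49582461, plus strand): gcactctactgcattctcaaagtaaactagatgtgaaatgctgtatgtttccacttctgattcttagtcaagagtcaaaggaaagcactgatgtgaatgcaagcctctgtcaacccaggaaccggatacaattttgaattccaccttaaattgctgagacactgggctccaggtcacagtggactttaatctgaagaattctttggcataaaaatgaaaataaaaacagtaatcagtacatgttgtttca
Ogn and Aspn hold 2 matches each on the 2 strands together, those of Ogn overlapping each other, and Omd holds 0, where 12.4% of 32851 RefSeq promoter windows of this length hold at least 1. The matches begin 229 and 227 bases before the start of Ogn and 207 and 178 before that of Aspn, and their use was not tested. The RBPJ core TGGGAA, the letters bound by the DNA-binding partner of Notch, has 0 matches on either strand in these 3 windows, and 21.6% of all windows hold one. Among the 7 genes only Prelp has it, once. The E box CANNTG was found 3 times for Ogn, once for Aspn and not for Omd, and 66.2% of all windows hold it. The AP-1 letters TGANTCA had 0 matches in any window of the 7 genes, against 6.75% of all windows. The 3 windows are low in G and C, with 42.0% for Ogn, 30.0% for Aspn and 38.4% for Omd, against a median of 52.4%.

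Ogn encodes osteoglycin, also called mimecan, a keratan sulfate proteoglycan that takes part in collagen fibril formation. Ogn (probe set 17287175) read 3.20, 4.87, 4.41, 5.30 and 4.07 in Jag1+/-Rfng+/- replicates 1 to 5, against 5.34, 5.54, 5.96, 5.31 and 6.22 in control replicates 1 to 5. All Jag1+/-Rfng+/- values lay below all control values, but the gap between Jag1+/-Rfng+/- replicate 4 and control replicate 4 was as small as the second decimal. It averaged 4.37 ± 0.80 in Jag1+/-Rfng+/- and 5.67 ± 0.40 in control (SD, n = 5 each), a difference of -1.31 ± 0.34 log2 (SE) or 2.47-fold lower, with a 95% interval of -2.04 to -0.57 (limma adjusted p = 0.416). Leaving out single arrays gave differences from -1.54 to -1.01. Within the arrays of the shared sample-name number Ogn differed by -0.94 (limma adjusted p = 0.823), and without replicate 5 among these by -0.75 (limma adjusted p = 0.867).

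Aspn encodes asporin, a relative of decorin that bears a run of aspartates and binds TGF-beta and collagen. Aspn (probe set 17287160) read 3.49, 4.48, 4.00, 7.16 and 5.67 in Jag1+/-Rfng+/- replicates 1 to 5, against 5.59, 5.54, 5.91, 5.09 and 5.60 in control replicates 1 to 5. The Jag1+/-Rfng+/- arrays thus lay on both sides of the controls, with replicates 1, 2 and 3 below all of them, replicate 4 above all of them and replicate 5 among them. The SD was 1.47 in Jag1+/-Rfng+/- and 0.30 in control, the widest spread of the 9 genes. The difference of -0.59 ± 0.55 log2 (SE) had a 95% interval of -1.79 to 0.62 (limma adjusted p = 0.873). Without Jag1+/-Rfng+/- replicate 4 it was -1.13 (limma adjusted p = 0.523), and without replicate 1 it was -0.22 (limma adjusted p = 0.946). On replicate 4 the 8 vascular smooth muscle markers averaged 6.78, against 4.80 to 5.61 on the other Jag1+/-Rfng+/- arrays and 4.95 to 6.31 in control. With their mean as a covariate, chosen after the data were seen, Aspn differed by -0.30 (limma adjusted p = 0.89). Smooth muscle was not alone in this. Replicate 4 was also the highest of its group for the portal fibroblast list (5.68) and the fibrillar collagen list (7.27). Those values lay within the control ranges of 4.86 to 5.95 and 6.03 to 7.32. With the portal fibroblast mean as a covariate Aspn lay at 0.10 (limma adjusted p = 0.985). The cause of the high Aspn value on replicate 4 was not tested.

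Omd encodes osteomodulin, a keratan sulfate proteoglycan best known from bone. It read 1.58 to 2.09 in Jag1+/-Rfng+/- and 1.74 to 2.01 in control, so no signal for it was seen between its brighter neighbours. For scale, 9 of 14 measured genes of retina, lens and sperm averaged under 3, with single values of 1.57 to 3.05, so a gene unused in liver can read at such levels. The other 5 averaged 3.18, 3.88, 4.20, 5.35 and 10.99. The scale thus sets no level above which a gene is shown to be used. Ecm2, at the other end of the cluster, averaged 3.72 ± 0.31 in Jag1+/-Rfng+/- and 4.29 ± 0.41 in control (SD, n = 5 each; limma adjusted p = 0.609), a difference of -0.58 ± 0.20 (SE). The per-array ratio of Ogn to Aspn differed by -0.72 log2 between the groups, which did not pass (exact permutation p = 0.254, two-sided, or 0.302 adjusted over the 5 pairs of genes compared). The ratio of Ogn to Omd differed by -1.26 (exact permutation p = 0.00794, or 0.0198 adjusted), and since Omd gave no signal this restates the Ogn difference.

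Lum and Dcn, neighbours on chromosome 10 and both encode partners of type I collagen. Lum encodes lumican, which carries keratan sulfate and spaces collagen fibrils, and Dcn encodes decorin, which carries a chondroitin or dermatan sulfate chain and binds TGF-beta. Lum (probe set 17236811) read 6.92, 7.71, 6.93, 8.07 and 7.14 in Jag1+/-Rfng+/- replicates 1 to 5, against 8.02, 8.23, 8.16, 7.67 and 8.13 in control replicates 1 to 5. Replicates 1, 3 and 5 of Jag1+/-Rfng+/- lay below all controls, while replicates 2 and 4 lay within their range. Lum averaged 7.35 ± 0.52 in Jag1+/-Rfng+/- and 8.04 ± 0.22 in control (SD, n = 5 each), a difference of -0.69 ± 0.22 log2 (SE), 1.61-fold lower, with a 95% interval of -1.17 to -0.21 (limma adjusted p = 0.564). Dcn (probe set 17236800) read 9.28, 9.26, 9.06, 9.54 and 9.02 in Jag1+/-Rfng+/- replicates 1 to 5, against 9.03, 9.39, 9.23, 9.10 and 9.29 in control replicates 1 to 5. The Dcn groups overlapped along most of their range, and the difference of 0.02 ± 0.12 log2 (SE) had a 95% interval of -0.24 to 0.28 (limma adjusted p = 0.983). Kera and Epyc, the next family genes along the chromosome and named for that place, read 2.05 to 2.23 and 1.71 to 2.06 in Jag1+/-Rfng+/- and 2.01 to 2.60 and 1.66 to 2.39 in control, at levels seen for genes unused in liver.

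Lum and Dcn were also set against each other on the same array. The log2 ratio of Lum to Dcn was -2.37, -1.55, -2.13, -1.46 and -1.88 in Jag1+/-Rfng+/- replicates 1 to 5, against -1.01, -1.16, -1.07, -1.43 and -1.16 in control replicates 1 to 5. The groups did not overlap, although Jag1+/-Rfng+/- replicate 4 and control replicate 4 came within the second decimal. The ratio differed by -0.71 log2, 1.64-fold lower (two-sided exact permutation p = 0.00794, or 0.0198 adjusted over the 5 pairs), and no split of 5 against 5 arrays can give a smaller p. After quantile normalization the ratio of Lum to Dcn differed by -0.69 (exact permutation p = 0.0159, or 0.0397 adjusted). That p is above the smallest possible, so the groups then overlapped. The pairs were chosen with the lower values of Ogn and Lum known, and since Dcn differed by only 0.02 this ratio largely restates the Lum difference, which did not pass over all genes. With any single array left out it differed by -0.81 to -0.59 (exact permutation, adjusted p = 0.0397 each time). Groups that do not overlap stay apart when an array is left out, so the exact p is then always the smallest possible. Only the range of differences is informative here, and the repeated p is no further test. Within the 7 arrays of the shared sample-name number the ratio of Lum to Dcn differed by -0.54 (exact permutation p = 0.0571, or 0.143 adjusted). That p is the smallest that 4 against 3 arrays allow. Bgn relative to Dcn differed by -0.36 (exact permutation p = 0.286, or 0.302 adjusted).

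**Figure D2:**
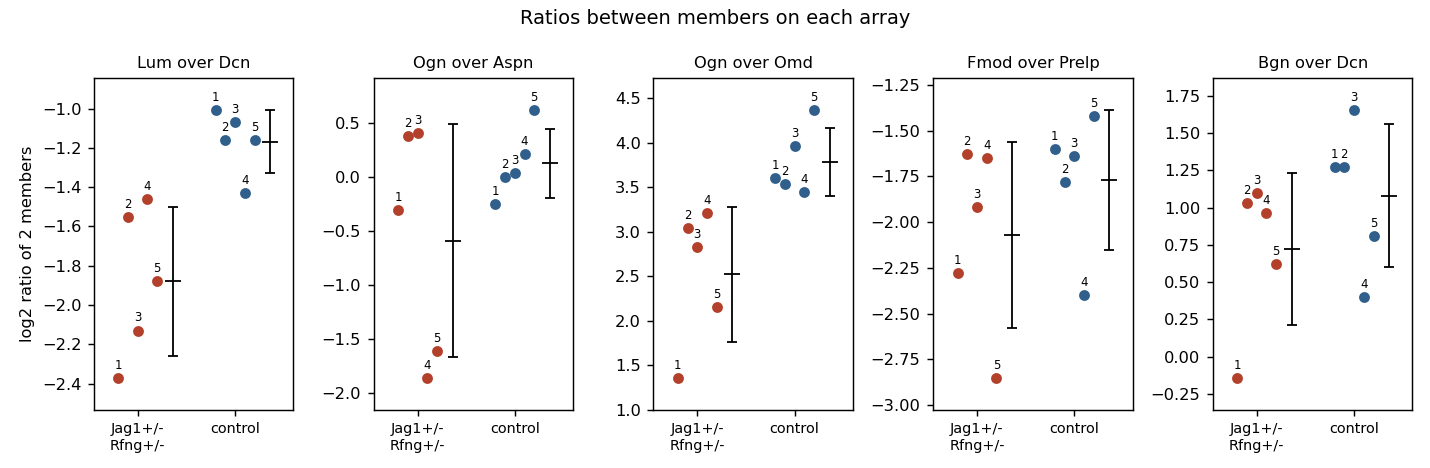
Each panel plots the log2 ratio of 2 genes on every array, with the 5 Jag1+/-Rfng+/- arrays in red and the 5 control arrays in blue, numbered by replicate, and bars for the mean ± SD. Lum over Dcn and Ogn over Omd have groups that do not overlap, and the other 3 ratios overlap.

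Fmod and Prelp are neighbours on chromosome 1, with Optc beside them. Fmod encodes fibromodulin, which binds collagen and guides its cross-linking, and Prelp encodes a basic repeat protein that ties basement membranes to the matrix beneath. Fmod (probe set 17227083) read 5.18, 5.99, 5.25, 5.98 and 4.35 in Jag1+/-Rfng+/- replicates 1 to 5, against 6.13, 6.21, 6.57, 4.87 and 5.93 in control replicates 1 to 5. Jag1+/-Rfng+/- replicate 5 was the lowest array and control replicate 4 the next, so the groups overlapped, and the difference was -0.60 ± 0.35 log2 (SE; limma adjusted p = 0.791). Without Jag1+/-Rfng+/- replicate 5 it was -0.35, and within the shared-number arrays less that replicate it was -0.14. Fmod has another, dimmer probe set, 17217373, which read 4.54, 5.39, 4.52, 5.27 and 3.75 in Jag1+/-Rfng+/- replicates 1 to 5, against 5.37, 6.05, 6.68, 4.80 and 5.47 in control replicates 1 to 5. On that set Fmod differed by -0.98 (limma adjusted p = 0.618), which passed an unadjusted p of 0.05, so that 3 of the 9 genes were lower at that threshold (3.79% of all genes), and the ratio of Fmod to Prelp, which differed by -0.30 on the brighter sets (exact permutation p = 0.302 raw and adjusted), differed by -0.84 with the dimmer sets of both genes (exact permutation p = 0.0238, or 0.0397 adjusted). Fmod lies on the plus strand in RefSeq, and the 20 single-gene probe sets with numbers nearest to the brighter Fmod set all belong to minus-strand genes, while the 20 nearest to the dimmer one all belong to plus-strand genes. For Prelp, a minus-strand gene, it is the brighter set that lies among minus-strand genes, and the 20 sets nearest to its dimmer set, on which Prelp differed by -0.14, all belong to plus-strand genes. The ratio of the dimmer sets thus rests on a Prelp set whose neighbours lie on the other strand from Prelp. No source used here states the strand that either set reads, and the size of the Fmod difference depends on which set is taken.

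Prelp (probe set 17227077) read 7.18 to 7.63 in Jag1+/-Rfng+/- and 7.27 to 8.21 in control. The high control values were those of replicates 1, 2 and 3, and the difference was -0.29 ± 0.19 log2 (SE), with a 95% interval of -0.70 to 0.11 (limma adjusted p = 0.808). Without control replicate 3 it was -0.17. Prelp was the only one of the 9 genes with the smaller SD in Jag1+/-Rfng+/-, 0.22 against 0.40 in control. The other 8 had the larger SD there, where 50.6% of all genes did. They include Omd, for which no signal was seen, and for Bgn the SDs were 0.55 and 0.54.

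Bgn encodes biglycan, a close relative of decorin that binds collagen and, when released, acts on Toll-like receptors. Bgn (probe set 17535558) read 9.15, 10.29, 10.16, 10.5 and 9.64 in Jag1+/-Rfng+/- replicates 1 to 5, against 10.31, 10.66, 10.88, 9.50 and 10.10 in control replicates 1 to 5. The groups overlapped, with Jag1+/-Rfng+/- replicate 1 and control replicate 4 the lowest, and the difference was -0.34 ± 0.29 log2 (SE), with a 95% interval of -0.98 to 0.29 (limma adjusted p = 0.861). It was -0.14 without Jag1+/-Rfng+/- replicate 1, -0.19 without control replicate 3 and -0.54 without control replicate 4, and -0.03 within the shared-number arrays less Jag1+/-Rfng+/- replicate 5. The dimmer Bgn probe set differed by -0.29. Bgn lies on the plus strand, and the 20 single-gene probe sets with numbers nearest to that dimmer set all belong to minus-strand genes. Those nearest to the brighter Bgn set all belong to plus-strand genes. The strand that the dimmer set reads is not stated, so it is no clear second reading of Bgn. Podn, which encodes podocan, read 3.81 to 4.18 in Jag1+/-Rfng+/- and 3.90 to 4.13 in control, a difference of -0.12 ± 0.10 log2 (SE; limma adjusted p = 0.855) that was -0.19 without Jag1+/-Rfng+/- replicate 4. Of 8 other family genes measured, only Ecm2 was called at an unadjusted p under 0.05, and their median difference was -0.02. Chad (0.16) and Podnl1 (-0.11), the next by p, had Jag1+/-Rfng+/- means of 2.97 and 2.52, against control means of 2.81 and 2.63, near the level of genes unused in liver.

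The lower values were concentrated on some arrays. Relative to each gene's mean over the 10 arrays, the 9 genes averaged -0.66, -0.05, -0.44, 0.45 and -0.40 on Jag1+/-Rfng+/- replicates 1 to 5, against 0.18, 0.37, 0.51, -0.20 and 0.25 on control replicates 1 to 5. Jag1+/-Rfng+/- replicate 1 held the lowest value of 4 genes (Lum, Bgn, Ogn and Aspn), replicate 5 that of 3 (Dcn, Fmod and Podn) and replicate 3 that of 2 (Prelp and Omd). Jag1+/-Rfng+/- replicate 4 held the highest value of 4 genes (Dcn, Aspn, Podn and Omd), and control replicate 3 that of 3 (Bgn, Fmod and Prelp).

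**Figure D3:**
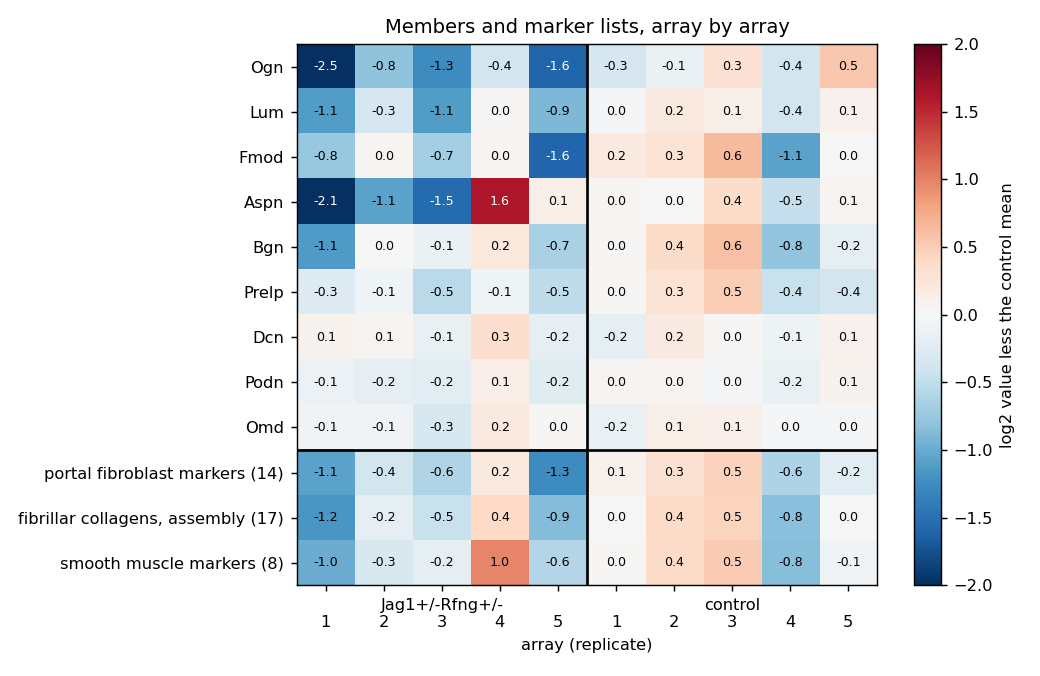
Each cell gives the log2 value of a gene, or the mean of a marker list, on 1 array less its mean over the 5 control arrays, with Jag1+/-Rfng+/- arrays left of the line and control arrays right of it. The colour scale ends at -2 and 2. Jag1+/-Rfng+/- replicate 1 is low for Ogn, Lum, Aspn and Bgn and for the 3 lists under the line, while the cells of Dcn, rounded to 1 decimal, read -0.2 to 0.3.

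Most markers of portal fibroblasts, a list that holds no gene of the family, were also lower in mean. The mean of the 14 measured markers was 4.41, 5.11, 4.88, 5.68 and 4.22 on Jag1+/-Rfng+/- replicates 1 to 5, against 5.57, 5.78, 5.95, 4.86 and 5.25 on control replicates 1 to 5. Of these markers 11 had a lower mean in Jag1+/-Rfng+/- and 3 a higher one, with a median difference of -0.61, and 0 passed limma's adjusted p of 0.05, with 5 lower (3.79% of all genes) and 0 higher (2.98% of all genes) at an unadjusted p under 0.05. These shares of all genes are the background for the unadjusted counts of the other lists too. The 3 markers with a higher mean, named for that, were Mfap5 (0.42), Pi16 (0.21) and Fbln2 (0.11). Pdgfra, a receptor of platelet-derived growth factor, averaged 4.97 ± 0.54 in Jag1+/-Rfng+/- and 6.02 ± 0.35 in control (SD, n = 5 each; limma adjusted p = 0.332). Thy1, Eln and Dpt, which encode a surface glycoprotein, elastin and dermatopontin, differed by -1.15 ± 0.31, -1.25 ± 0.39 and -2.60 ± 0.87 log2 (SE). With the marker mean as a covariate Ogn differed by -0.79 (95% interval -1.48 to -0.09, limma adjusted p = 0.632) and Lum by -0.30 (95% interval -0.69 to 0.09, limma adjusted p = 0.763). In that fit Bgn, Fmod, Aspn and Prelp lay at 0.25, 0.12, 0.10 and 0.01, so their sign turned, and Dcn lay at 0.16. The 95% intervals of these genes all spanned 0, so no direction is shown for them. The marker mean itself averaged 4.86 in Jag1+/-Rfng+/- and 5.48 in control. At an unadjusted p under 0.05 only Ogn was lower in it (3.35% of all genes) and 0 of the 9 were higher (3.80% of all genes). The 8 vascular smooth muscle markers had list means of 4.80, 5.47, 5.61, 6.78 and 5.21 on Jag1+/-Rfng+/- replicates 1 to 5, against 5.82, 6.18, 6.31, 4.95 and 5.73 on control replicates 1 to 5. As in the family, Jag1+/-Rfng+/- replicate 1 and control replicate 4 were the lowest of their groups, and Jag1+/-Rfng+/- replicate 4 and control replicate 3 the highest. Of these markers 6 had a lower mean and 2 a higher one, with 1 lower and 0 higher at an unadjusted p under 0.05 and 0 passing limma's adjusted p. With their mean as a covariate, chosen after the data were seen, Ogn differed by -1.14 (limma adjusted p = 0.263) and Lum by -0.57 (limma adjusted p = 0.397), both still under an unadjusted p of 0.05 (4.09% of all genes lower), and all 9 genes kept their direction. Hepatic stellate cell markers, 9 measured, had list means of 5.54 to 5.97 in Jag1+/-Rfng+/- and 5.71 to 6.03 in control. Mesothelial markers, 7 measured, had list means of 2.68 to 3.07 in Jag1+/-Rfng+/- and 2.70 to 3.01 in control. Endothelial markers, 8 measured, had list means of 7.09 to 7.62 in Jag1+/-Rfng+/- and 7.02 to 7.36 in control, and 8 macrophage and leukocyte markers 6.78 to 7.74 in Jag1+/-Rfng+/- and 6.90 to 7.24 in control. At an unadjusted p under 0.05, 5 of the 8 biliary markers were lower and 2 higher, 1 of 8 endothelial markers was higher, 2 of 8 leukocyte markers were higher, and 1 of 9 stellate markers was lower and 1 higher, with 0 passing limma's adjusted p in each list. The part of these 5 lists in the family's values was not tested.

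**Figure D4:**
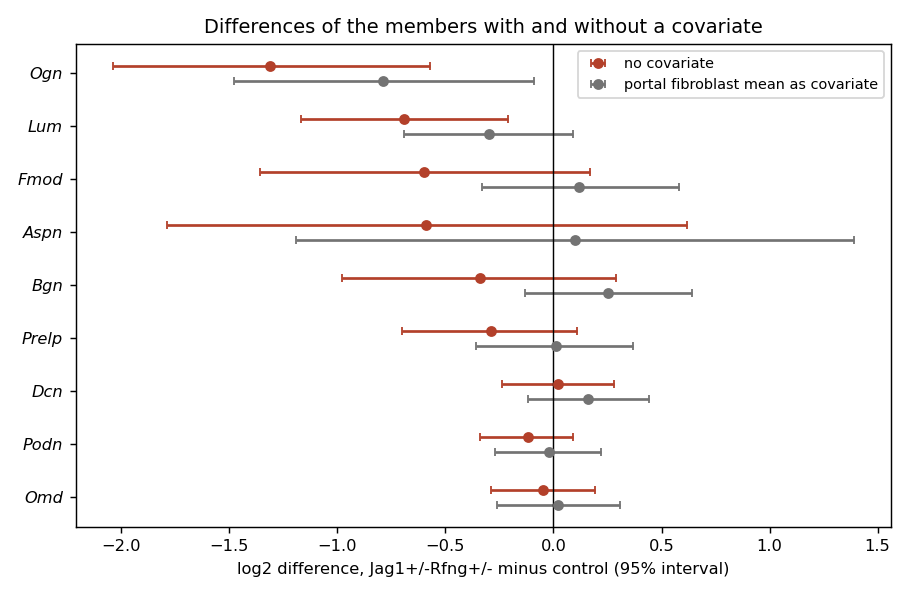
Points give the log2 difference, Jag1+/-Rfng+/- minus control, of each gene with its 95% interval, in red without a covariate and in grey with the mean of the 14 portal fibroblast markers as a covariate. Without it the intervals of Ogn and Lum lie below 0, and with it only that of Ogn does.

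The collagens that these proteins coat were also lower on average. Of 17 measured genes of fibrillar collagens and fibril assembly 16 had a lower mean in Jag1+/-Rfng+/-, with a median difference of -0.46, and 0 passed limma's adjusted p, with 2 lower and 0 higher at an unadjusted p under 0.05. Col3a1, the chain of type III collagen, averaged 8.21 ± 0.85 in Jag1+/-Rfng+/- and 9.13 ± 0.72 in control (SD, n = 5 each; limma adjusted p = 0.732). Pcolce, which enhances the removal of collagen propeptides, differed by -0.63 ± 0.28 log2, and Col14a1, whose product lies on fibril surfaces, by -0.57 ± 0.27 (SE). The list mean per array was 5.70 to 7.27 in Jag1+/-Rfng+/- and 6.03 to 7.32 in control, lowest on Jag1+/-Rfng+/- replicate 1.

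The enzymes that build the sugar chains went both ways. Of 23 measured genes of chondroitin and dermatan sulfate synthesis 14 had a lower and 9 a higher mean, with a median difference of -0.07, and 0 passed limma's adjusted p, with 2 lower and 1 higher at an unadjusted p under 0.05. Papss1, which makes the sulfate donor, averaged 3.80 ± 0.34 in Jag1+/-Rfng+/- and 4.47 ± 0.41 in control (SD, n = 5 each; limma adjusted p = 0.546). Dse, the epimerase that turns chondroitin into dermatan sulfate, differed by -0.32 ± 0.15 log2, and the sulfotransferase gene Chst11 by 0.32 ± 0.14 (SE), with a Chst11 mean of 2.90 in Jag1+/-Rfng+/- and 2.58 in control. Of 9 measured genes of keratan sulfate synthesis 3 had a lower and 6 a higher mean, with a median of 0.03, and 0 passed limma's adjusted p, with 1 lower and 0 higher at an unadjusted p under 0.05. Fut8, which adds the core fucose of N-linked chains, differed by -0.37 ± 0.14 (SE), while the chain-extending enzyme gene B3gnt7 (0.14) and the sulfotransferase gene Chst5 (0.13) differed by less than their SE of 0.15 and about their SE of 0.13.

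Of 24 other proteoglycans measured, 13 had a lower and 11 a higher mean, with a median of -0.10, and 0 passed limma's adjusted p, with 3 lower and 3 higher at an unadjusted p under 0.05. Sdc4, the heparan sulfate proteoglycan syndecan-4 of the cell surface, read 8.54 to 8.76 in Jag1+/-Rfng+/- and 8.30 to 8.51 in control, with groups that did not overlap and a difference of 0.32 ± 0.09 log2 (SE; limma adjusted p = 0.443). Gpc1, which encodes glypican-1, differed by 0.32 ± 0.14, and Esm1, an endothelial proteoglycan, by -0.70 ± 0.25 (SE). Among 17 growth factors and receptors that bind the family 0 were called in either direction at an unadjusted p under 0.05 and 0 by limma's adjusted p, with a median of -0.07. Of these Bmp4 differed by -0.33, the integrin gene Itgb1 by -0.18 and the receptor gene Igf1r by -0.41.

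Of the proteases that cut the family and their inhibitors, 14 were measured, with a median of -0.12, and 0 passed limma's adjusted p, with 2 lower and 0 higher at an unadjusted p under 0.05. Adamts5, an aggrecanase that also cleaves biglycan and decorin, read 3.94, 5.07, 4.74, 4.82 and 4.04 in Jag1+/-Rfng+/- replicates 1 to 5, against 5.53, 6.00, 6.44, 5.10 and 5.35 in control replicates 1 to 5. The groups did not overlap, and the difference was -1.16 ± 0.28 log2 (SE), 2.24-fold lower (limma adjusted p = 0.332). Mmp2, the gelatinase of fibroblasts, differed by -1.27 ± 0.50 (SE; limma adjusted p = 0.661) and Gzmb, a protease of cytotoxic lymphocytes, by -0.43 ± 0.20 (SE).

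**Figure D5:**
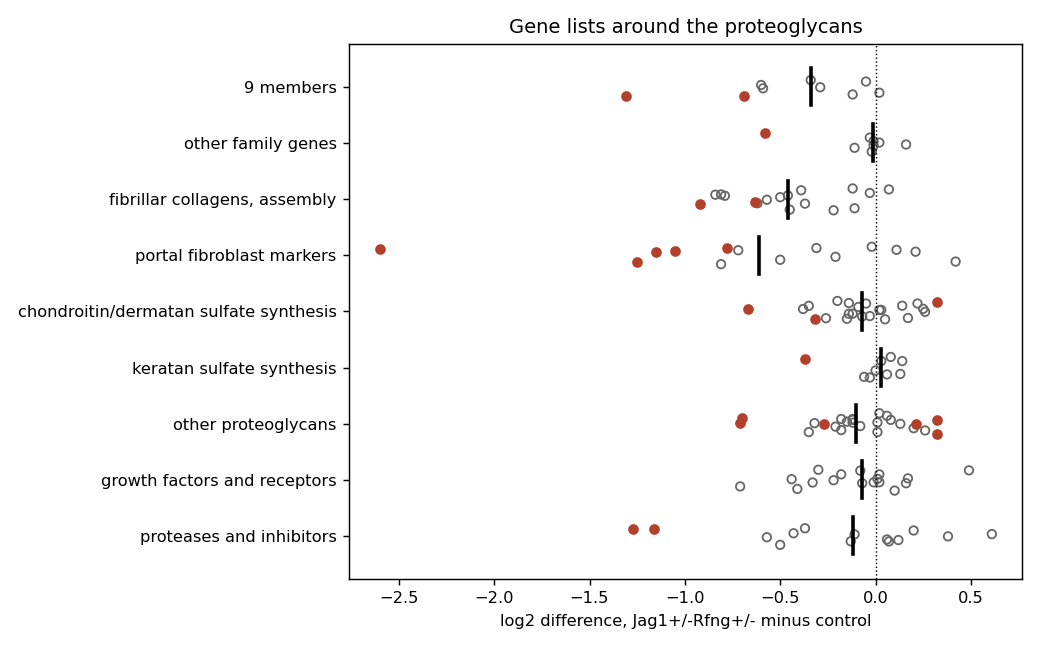
Each point is the log2 difference of 1 gene, Jag1+/-Rfng+/- minus control, filled where its unadjusted p is under 0.05, and the black bars are list medians. Vertical scatter within a list carries no value. The medians of the 9 genes (-0.34), the collagen and fibril assembly genes (-0.46) and the portal fibroblast markers (-0.61) lie left of those of the sugar-chain enzymes (-0.07 and 0.03). The fibril assembly and portal fibroblast lists share a gene.

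The genes whose 10 values followed the mean of the family most closely were Olfml3, Prdm6, Ogg1, Gata6, Gli3 and Cep295nl. The measure was the root mean square difference between the gene's values, less their mean, and the family mean treated the same way, and it was 0.13 to 0.17 log2 for these 6. Olfml3 encodes a secreted matrix protein, Gata6, Gli3 and Prdm6 transcription regulators, and Ogg1 a DNA repair enzyme. Olfml3 averaged 3.58 ± 0.29 in Jag1+/-Rfng+/- and 3.91 ± 0.28 in control, and Gata6 5.31 ± 0.41 in Jag1+/-Rfng+/- and 5.73 ± 0.44 in control (SD, n = 5 each). The differences of the 6 genes ranged from -0.53 for Cep295nl to -0.23 for Gli3, and 0 passed limma's adjusted p (0.607 to 0.877), with Cep295nl the only one at an unadjusted p under 0.05.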

How the data were processed

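The authors deposited a log2 value of expression for each of 33649 probe sets on each array, from 1.08 to 12.47. Per the submitters' processing notes RMA and Partek 6.6 were used, with no role stated. RMA brings arrays to a common distribution and tends to understate folds of dim genes. No detection calls were used here. The platform annotation gave the symbols: 23521 probe sets have 1 symbol, 1814 several and 8314 none. The set with the highest mean was taken for the 1082 genes with several sets, which left 22180 genes. No filter on dim genes was used. Groups and replicates came from sample titles, the table held 0 columns of no sample, and no arrays were identical (0 pairs).

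For each gene, lmFit and eBayes of limma 3.58.1 (R 4.3.3) tested Jag1+/-Rfng+/- against control, two-sided and without covariates, and p-values were adjusted over all genes (Benjamini-Hochberg, threshold 0.05). Ratios of 5 pairs of genes were compared by exact permutation over all splits (scipy 1.17.1). The limma step was tested on simulated data. The genes followed, the 16 lists and the tests were chosen with earlier results of these data known, which included the differences of Ogn and Lum. Genes named are the 9 members, Jag1 and Rfng, the 3 genes of smallest p in every list other than the marker lists, the 4 such portal fibroblast markers and the 6 genes most like the family mean. Outside that rule, Kera, Epyc and Optc are named for their place beside members, and Mfap5, Pi16 and Fbln2, after their values were seen, for their higher means. Genes of retina, lens and sperm serve only as a scale, whose level of 3 was set after the values were seen. Gene order, strands and promoters came from RefSeq (GRCm38.p6). No source used here names the build of the array annotation. The alternatives left out single arrays, added a replicate block, or used the arrays of the shared sample-name number with and without replicate 5, array weights, trend and robust eBayes settings, quantile, median and cyclic loess normalization, a filter on dim genes, other handling of probe sets, and portal fibroblast or hepatocyte covariates. Added after the data were seen were the dimmer probe sets of Fmod, Prelp and Bgn and a smooth muscle covariate.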

Additional observations from a re-analysis of the deposited data

Results flagged for a closer look

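One value stood apart within its group, by Dixon's criterion at the 95% level for 5 samples, among 94 groups of named genes and ratios checked, and chance flags about 1 group in 20. Itgb1, the shared beta subunit of collagen and laminin receptors, read 7.78 on Jag1+/-Rfng+/- replicate 5, the array whose sample name ends in excl, with a gap to the next array of 0.807 of the group's range.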

How the results depend on the processing

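Ogn, Lum and Podn kept their direction under all 25 alternatives, with differences of -1.54 to -0.75, -0.87 to -0.30 and -0.19 to -0.02 log2, and no alternative brought any of the 9 genes past an adjusted p of 0.05. Some of the 25 cannot move these differences. Each of these genes has only 1 probe set, so other handling of probe sets reuses the same values. The replicate block, the trend and robust settings and the filter on dim genes change only the p-values. Ogn had an unadjusted p under 0.05 under all 25 and Lum under 22. The number of the 9 genes lower at that threshold was 2 to 4 when single arrays were left out and 1 (Ogn) within the arrays of the shared sample-name number, within those without replicate 5, and with the portal fibroblast covariate. It was 3, with Fmod added, with probe sets of 1 gene averaged and with the dimmer sets (3.80% and 3.79% of all genes), and the share of all genes lower at that threshold was 3.01% to 4.76% over the alternatives. With that covariate Bgn, Fmod, Aspn, Prelp and Omd turned to 0.25, 0.12, 0.10, 0.01 and 0.02. Dcn, at 0.02, gave -0.05 to 0.08 when single arrays were left out and -0.02 within the shared-number arrays, and Omd gave -0.11 to 0.02 when single arrays were left out. The cause was not tested. Whether the replicate numbers pair the arrays was not settled. Deviations of same-numbered arrays from their group means had correlations of -0.234 to 0.061. Differently numbered arrays were not compared, so these values cannot exclude a pairing. With the replicate numbers as a block 2 genes of 22180 passed. In that fit 2 of the 9 were lower at an unadjusted p under 0.05 (3.75% of all genes), and Ogn kept -1.31 (limma adjusted p = 0.562).

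The number of all genes past the threshold was 2, and 2 to 6 when single arrays were left out. It was 5 with array weights, 11 with trend and robust eBayes, and 11 among genes above the median level, where 11090 were tested. It was 0 in the shared-number arrays without replicate 5, where limma gave 1215 genes an unadjusted p under 0.05. The Lum to Dcn ratio differed by -0.54 in the shared-number arrays and by -0.49 without replicate 5 (exact permutation, adjusted p = 0.143 and 0.250), and the Ogn to Omd ratio by -0.83 and -0.61 (exact permutation, adjusted p = 0.143 and 0.250). In these fewer splits the smallest p is 0.0571 and 0.1. The Fmod to Prelp ratio turned to 0.20 in the shared-number arrays without replicate 5 (exact permutation, adjusted p = 1) and differed by -0.84 with the dimmer probe sets (exact permutation, adjusted p = 0.0397). The ratios of Ogn to Aspn and of Bgn to Dcn kept their direction under all alternatives run for them, of which median centring cannot move a ratio. Omd was not among the genes above the median level.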
